A study of Mus musculus with 8 samples.

Results

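The 10 genes described here are expressed by microglia, the resident macrophages of the brain, and for the most part by macrophages of other tissues too. They are Ptprc, Spi1, Csf1r, Cx3cr1, Trem2, C1qa, C1qb, C1qc, Aif1 and Mpeg1, chosen by name, and they are 10 of the 18193 genes measured on 8 arrays. Each gene is represented by the probe set, among those naming that gene alone, with the highest mean over the 8 arrays. On 3 of the 4 cortex arrays 8 of the 10 genes stood above every lung array, as did 13.7% of all genes. On the array of cortex 18 the 8 genes lay at or near the level of lung.

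The arrays measured RNA from cells of mouse embryos, taken from cortex or lungs and sorted for GFP, at E13.5, counted in days from mating. All embryos, in both groups, came from homozygous Tie2-GFP transgenic mice, a line that makes green fluorescent protein (GFP) under the promoter of Tek, the Tie2 receptor gene of endothelial cells. The cortex group (4 arrays) and the lung group (4 arrays) differ in the organ dissected, and no animal received a treatment. Each array held the pooled cells of a litter of 10 to 13 embryos, so a sample is a pool and not an animal, and the samples carry the numbers 72, 22, 19 and 18 in each tissue. Meninges and choroid plexus were removed from the cortex during dissection. The study set out to compare vessels of the forming blood-brain barrier with vessels of another organ. The Tie2 promoter is also known to be active in blood progenitors and in some macrophages, and microglia descend from Tie2-expressing yolk sac precursors, so GFP need not mark vessels alone.

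Values are log2 expression values made by RMA, and a difference of 1 means a 2-fold difference. The medians of the arrays were 6.59 to 6.72, and precision is limited by there being 4 arrays in each tissue. The mean of 16 endothelial genes was 9.70 to 11.49 on the cortex arrays and 11.56 to 12.04 on the lung arrays. The mean of 10 neural genes was 11.31 to 11.92 on the cortex arrays against 5.56 to 6.05 on the lung arrays, so the sorted cortex cells carried much neural RNA beside that of vessels. In 4 samples, numbers 19 and 18 of each tissue, the free-text description names the other tissue, and the tissue was taken from the other fields. Cortex 18 had a neural mean of 11.90, inside the range of the other cortex arrays. Its endothelial mean, 9.70, was the lowest of the 8 arrays, followed by cortex 72 with 10.09. In pooled bulk samples such as these, fewer cells of a type and less RNA of a gene in each cell cannot be told apart.

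Microglia arise from macrophage precursors of the yolk sac that enter the brain around the time its first vessels form, and they then live among vessels and neural progenitors. The transcription factor PU.1, encoded by Spi1, is needed to make them, and signalling through the receptor encoded by Csf1r keeps them alive. They take up dying cells and synapses, which complement C1q can tag for removal, and they sense neurons through the fractalkine receptor Cx3cr1. Macrophages of the embryonic lung share most of these genes, while Cx3cr1 is used by fewer macrophage types.

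PU.1 binds DNA at sites with the core GAGGAA, so the promoters of the genes were searched for these letters on either strand, as GAGGAA or TTCCTC, in the 250 bases before each start site. The RefSeq promoter table (GRCm38.p6) held an entry for 7 of the 10 genes, with 8 promoters, as Ptprc had 2. The letters were found in 5 of the 8 promoters, those of C1qb, C1qc, Trem2 and Aif1 and 1 of Ptprc. Of all 32851 promoters of this length in the table, 23.3% held them. The 4 promoters printed here are of a pair of neighbouring complement genes, a receptor gene with the letters and a receptor gene without them. The motif stands in capitals, and each is written 5′ to 3′ on the strand of the gene. C1qb (chr4:136886201-136886450, minus strand) held GAGGAA 30 bases before the start, C1qc (chr4:136892915-136893164, minus strand) held TTCCTC 193 bases before it, and Trem2 (chr17:48346151-48346400, plus strand) held TTCCTC 40 bases before it. Cx3cr1 (chr9:120068297-120068546, minus strand) held neither, nor did the promoter of Mpeg1. A match is a description of the letters and not a binding site.
C1qb: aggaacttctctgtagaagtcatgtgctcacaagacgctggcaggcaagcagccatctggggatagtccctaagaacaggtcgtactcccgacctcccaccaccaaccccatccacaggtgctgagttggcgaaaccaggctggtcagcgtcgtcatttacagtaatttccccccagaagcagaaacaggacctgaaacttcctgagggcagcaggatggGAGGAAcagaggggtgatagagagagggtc
C1qc: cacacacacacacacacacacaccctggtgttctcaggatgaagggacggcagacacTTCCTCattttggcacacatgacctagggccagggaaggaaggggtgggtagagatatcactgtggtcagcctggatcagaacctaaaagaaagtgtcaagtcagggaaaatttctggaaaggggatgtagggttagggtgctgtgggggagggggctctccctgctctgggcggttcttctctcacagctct
Trem2: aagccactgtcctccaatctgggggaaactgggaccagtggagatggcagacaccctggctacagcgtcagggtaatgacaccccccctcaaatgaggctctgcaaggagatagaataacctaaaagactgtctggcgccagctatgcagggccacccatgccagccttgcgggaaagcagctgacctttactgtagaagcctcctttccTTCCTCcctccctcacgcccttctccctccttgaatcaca
Cx3cr1: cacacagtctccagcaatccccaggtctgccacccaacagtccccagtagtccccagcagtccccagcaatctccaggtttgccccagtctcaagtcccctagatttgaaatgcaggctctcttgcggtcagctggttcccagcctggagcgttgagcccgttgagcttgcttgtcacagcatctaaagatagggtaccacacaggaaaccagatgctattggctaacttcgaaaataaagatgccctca

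The comparison of cortex with lung asked which of the genes differed between the sorted cells of the organs. Of the 10 genes, limma called 6 higher in cortex (adjusted p under 0.05, by Benjamini-Hochberg over 18193 genes), 0 higher in lung, and left 4 uncalled. They were Csf1r, Cx3cr1, C1qa, C1qb, C1qc and Mpeg1. Among all genes tested, 10.4% were called towards cortex and 7.71% towards lung. These were 1888 and 1403 genes, a split that became 5480 and 157 when arrays were scaled to their endothelial genes, where 9 of the 10 genes were called towards cortex. Under that scaling the fit gave Spi1, Csf1 and Irf8 the same standard error (SE) of 0.565. Its p-values therefore do not measure each gene's own spread. With the values as deposited, 9 of the 10 were higher in cortex and 0 in lung at an unadjusted p under 0.05. The share of all genes at that threshold was not counted, so these counts have no background. The median difference, cortex minus lung, was 2.51 over the 10 genes and -0.09 over all genes. Single arrays decided the count: it was 0 without cortex 72, 1 without cortex 22, 1 without cortex 19, 8 without cortex 18, 4 without lung 72, 1 without lung 22, 2 without lung 19 and 2 without lung 18. It was 3 when each gene was represented by its lowest probe set. These were C1qa, C1qc and Mpeg1, which had 1 probe set each, while Csf1r, Cx3cr1 and C1qb, which had others, lost their calls. The count was 0 with variances not moderated across genes, where 7 passed at an unadjusted p under 0.05, again without a share of all genes.

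**Figure D1:**
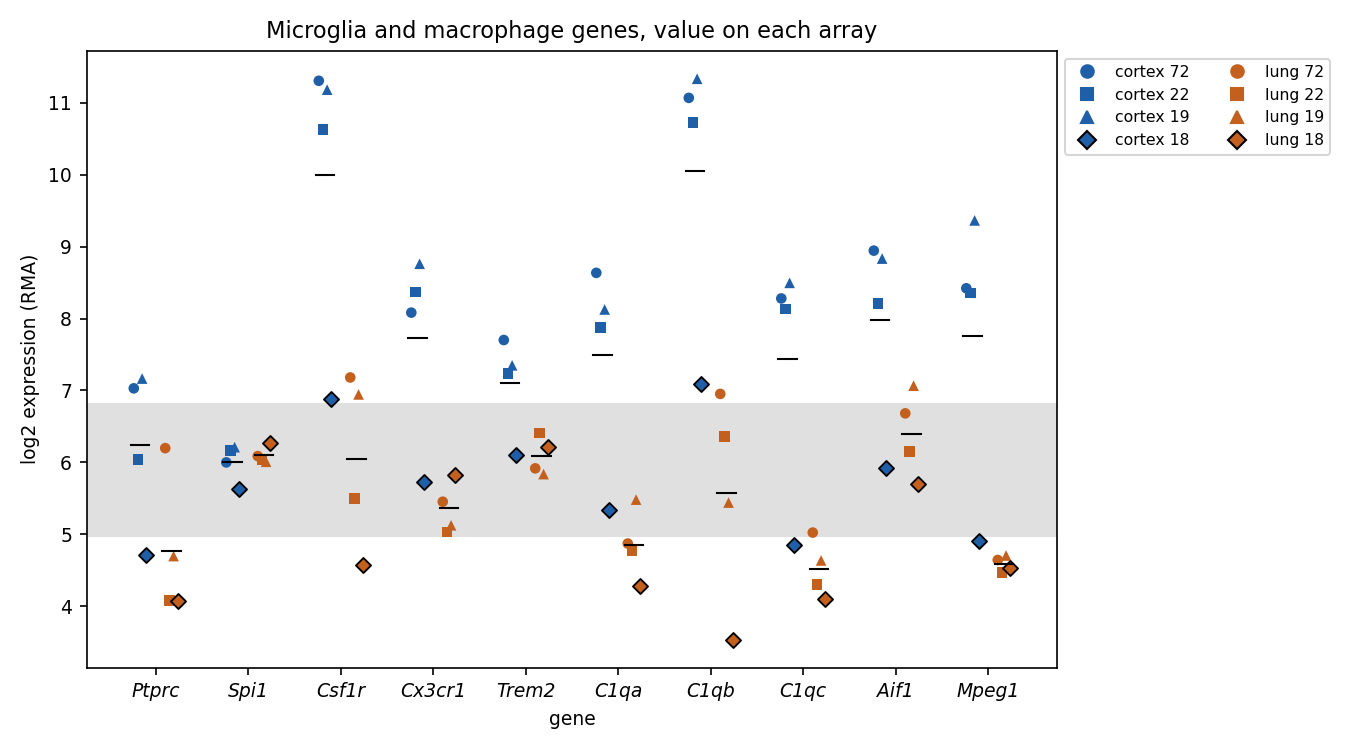
Log2 expression of the 10 genes (x axis) on each of the 4 cortex arrays (blue) and 4 lung arrays (orange), with a symbol for each sample number, black edges for number 18 and a black bar at each tissue's mean. The grey band spans the per-array 95th percentiles of olfactory receptor genes, 4.98 to 6.81. Cortex 18 is the lowest cortex array for all 10 genes, and Spi1 shows no separation of the tissues.

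Ptprc encodes CD45, the phosphatase on the surface of nearly all leukocytes, and Spi1 encodes PU.1. Ptprc read 7.03, 6.04, 7.16 and 4.72 on cortex 72, 22, 19 and 18, and 6.20, 4.08, 4.70 and 4.08 on lung 72, 22, 19 and 18. Lung 72 stood above cortex 22 and cortex 18, so the groups overlapped. The means were 6.24 ± 1.13 (SD, n = 4) in cortex and 4.76 ± 1.0 (SD, n = 4) in lung, a difference of 1.47 (SE 0.64, adjusted p = 0.156). It still did not pass without cortex 18, with a difference of 1.98 (adjusted p = 0.0536).

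Spi1 read 6.0, 6.17, 6.21 and 5.63 on the cortex arrays, in the same order of numbers, and 6.09, 6.03, 6.01 and 6.27 on the lung arrays. The arrays of the tissues were mixed, and cortex 18 was the lowest of all 8. The means were 6.0 ± 0.26 (SD, n = 4) and 6.10 ± 0.12 (SD, n = 4), with a difference of -0.10 (SE 0.16, adjusted p = 0.702). It was 0.025 without cortex 18 (adjusted p = 0.927), and it became 1.09 when arrays were scaled to their endothelial genes, a scaling that moves the median of all genes from -0.09 to 1.10. On this probe set the 8 arrays lay within 5.63 to 6.27, the narrowest range of the 10 genes.

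The receptors Csf1r, Cx3cr1 and Trem2 were all lower on cortex 18 than on the other cortex arrays, and Csf1r and Cx3cr1 were higher in cortex by the test. Csf1r, the receptor for the growth factors Csf1 and Il34, read 11.31, 10.63, 11.18 and 6.89 on cortex 72, 22, 19 and 18. On lung it read 7.18, 5.50, 6.94 and 4.57. Cortex 72, 22 and 19 stood above every lung array, and cortex 18 fell between lung 19 and lung 22. The means of 10.00 ± 2.10 (SD, n = 4) in cortex and 6.05 ± 1.23 (SD, n = 4) in lung differed by 3.95 (SE 1.02), a 15.5-fold difference with an adjusted p of 0.0293. Without cortex 18 it was 31.8-fold (adjusted p = 0.00167), while the call ended without any 1 of cortex 72, cortex 22, cortex 19, lung 22 and lung 18 (adjusted p from 0.0699 to 0.083).

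Cx3cr1, the receptor for the neuronal chemokine fractalkine, read 8.08, 8.37, 8.76 and 5.73 on the cortex arrays and 5.45, 5.03, 5.12 and 5.83 on the lung arrays. Cortex 72, 22 and 19 were again above every lung array, and cortex 18 was below lung 18. The means were 7.73 ± 1.37 (SD, n = 4) and 5.36 ± 0.36 (SD, n = 4), a difference of 2.37 (SE 0.60), or 5.19-fold, with an adjusted p of 0.0268. The difference was 8.25-fold without cortex 18 (adjusted p = 0.00025). The call ended without any 1 of cortex 72, cortex 22, cortex 19, lung 72, lung 22 and lung 19 (adjusted p from 0.0501 to 0.0742).

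Trem2, a lipid-sensing receptor that signals through the adaptor Tyrobp, read 7.70, 7.23, 7.35 and 6.11 on the cortex arrays. On the lung arrays it read 5.92, 6.41, 5.84 and 6.22. Cortex 18 lay inside the range of lung, and the other cortex arrays were above it. The means were 7.10 ± 0.69 (SD, n = 4) and 6.09 ± 0.27 (SD, n = 4), a difference of 1.0 (SE 0.33) that did not pass (adjusted p = 0.0682). It passed without cortex 18, with a difference of 1.33 (adjusted p = 0.0044).

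The complement genes C1qa, C1qb and C1qc encode the chains of C1q, the molecule that starts the classical complement pathway, and tissue macrophages are the main source of it. They are neighbours on chromosome 4, in the order C1qb, C1qc and C1qa between Ephb2 and Epha8 in the RefSeq table. All 3 were higher in cortex. C1qa read 8.63, 7.88, 8.13 and 5.34 on cortex 72, 22, 19 and 18, and 4.87, 4.77, 5.48 and 4.28 on lung 72, 22, 19 and 18. Only cortex 18 fell within the lung range. The means of 7.49 ± 1.47 (SD, n = 4) and 4.85 ± 0.49 (SD, n = 4) differed by 2.64 (SE 0.66), or 6.25-fold (adjusted p = 0.0247). Without cortex 18 the difference was 10.3-fold (adjusted p = 0.000398), and the call ended without any 1 of cortex 72, cortex 22, cortex 19, lung 22 and lung 18 (adjusted p from 0.0598 to 0.0668).

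C1qb had the largest difference of the 10 genes. It read 11.07, 10.73, 11.33 and 7.08 on the cortex arrays and 6.95, 6.36, 5.44 and 3.53 on the lung arrays. Every cortex array stood above every lung array, though cortex 18 exceeded lung 72 by little. The means were 10.05 ± 1.99 (SD, n = 4) and 5.57 ± 1.49 (SD, n = 4), a difference of 4.48 (SE 1.05), or 22.4-fold, with an adjusted p of 0.0190. It was 44.4-fold without cortex 18 (adjusted p = 0.00243), and the call ended without cortex 72 (adjusted p = 0.0591) and without lung 19 (0.0507).

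C1qc read 8.28, 8.13, 8.50 and 4.85 on the cortex arrays and 5.02, 4.30, 4.64 and 4.10 on the lung arrays. Cortex 18 was below lung 72, and the other cortex arrays were above all of lung. The means of 7.44 ± 1.73 (SD, n = 4) and 4.51 ± 0.41 (SD, n = 4) differed by 2.93 (SE 0.75), or 7.60-fold (adjusted p = 0.0284). The difference was 13.8-fold without cortex 18 (adjusted p = 9.16e-05). The call ended without any 1 of cortex 72, cortex 22, cortex 19, lung 22, lung 19 and lung 18 (adjusted p from 0.0637 to 0.0808).

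Aif1 and Mpeg1 act in the phagocyte itself. Aif1 encodes IBA1, the actin-binding protein used to stain microglia, and Mpeg1 encodes perforin-2, a pore-forming protein of macrophages. Aif1 read 8.94, 8.21, 8.83 and 5.92 on the cortex arrays and 6.68, 6.15, 7.07 and 5.70 on the lung arrays. Cortex 18 lay between lung 18 and lung 22. The means were 7.98 ± 1.41 (SD, n = 4) and 6.40 ± 0.60 (SD, n = 4), and the difference of 1.58 (SE 0.65) did not pass (adjusted p = 0.136). It was 2.26 and passed without cortex 18 (adjusted p = 0.00459).

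Mpeg1 read 8.42, 8.36, 9.36 and 4.91 on cortex 72, 22, 19 and 18, and 4.64, 4.46, 4.70 and 4.54 on lung 72, 22, 19 and 18. The lung arrays lay close together, and cortex 18 was just above them. The means were 7.76 ± 1.96 (SD, n = 4) and 4.59 ± 0.11 (SD, n = 4), a difference of 3.18 (SE 0.83), or 9.04-fold, with an adjusted p of 0.0300. Without cortex 18 it was 17.5-fold (adjusted p = 8.43e-05). The call held only without cortex 18 among the 8 single arrays, and it ended without any other, lung arrays included (adjusted p from 0.0566 to 0.0833).

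**Figure D2:**
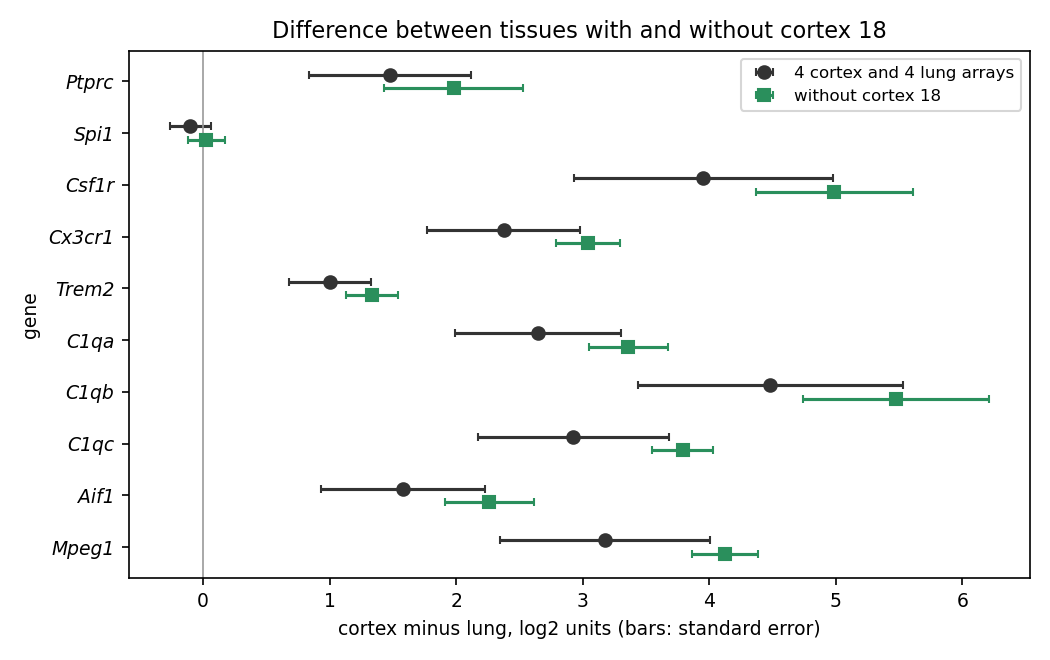
Difference between cortex and lung (x axis, cortex minus lung in log2 units, bars are standard errors of the fit) for each of the 10 genes, with all 8 arrays (black) and without cortex 18 (green). Cortex 18 is the lowest cortex array for all 10 genes, so leaving it out has to move each difference up. The difference goes from 4.48 to 5.47 for C1qb, and Spi1 stays near 0.

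Cortex 18 was the pattern that the genes shared most. It was the lowest of the 4 cortex arrays for 10 of the 10 genes, which holds for 26.5% of all genes. It was at least 1 log2 unit below each other cortex array for 9 of the 10, against 1.62% of all genes. The shortfall from the mean of the other cortex arrays was largest for Csf1r (-4.15), C1qb (-3.96), Mpeg1 (-3.80) and C1qc (-3.45). It was smallest for Trem2 (-1.32) and Spi1 (-0.50). Both features together, cortex 72, 22 and 19 above every lung array and cortex 18 at least 1 log2 unit below them, were found in 8 of the 10 genes and in 0.352% of all genes. For 7 of the 10 genes the value on cortex 18 lay inside the range of the lung arrays. All 4 cortex arrays stood above all 4 lung arrays for C1qb and Mpeg1 alone, 2 of 10 genes against 12.5% of all genes. Without counting cortex 18, the cortex arrays stood above all of lung for 8 of the 10, every gene but Ptprc and Spi1, against 13.7% of all genes. The fit without cortex 18 called 8 of the 10 higher in cortex, where 8.09% of all genes were, with a median difference of 3.20. As cortex 18 was the lowest cortex array for all 10 genes, leaving it out had to raise each difference. That fit is therefore a description and not separate support. Cortex 18 was singled out from the values of these same genes, so the counts built on it are a description too.

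Lung 18 was the lowest lung array for 6 of the 10 genes, which holds for 30.4% of all genes. For 6 of the 10 the arrays numbered 18 were the lowest of their tissue in both tissues, which holds for 10.7%. Lung varied between its arrays for 3 genes in particular. C1qb spanned 3.53 to 6.95 on lung, Csf1r 4.57 to 7.18 and Ptprc 4.08 to 6.20, while Mpeg1 stayed within 4.46 to 4.70.

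The level of these genes in lung was close to the low end of the scale. RMA values carry no detection call, so 39 olfactory receptor genes, which these cells hardly use, were taken to describe where unused genes lie, although each probe set has its own brightness. Their median was 4.02 to 4.47 per array and their 95th percentile 4.98 to 6.81. Of the 40 cortex values of the 10 genes, 36 were above the 95th percentile of their array, and of the 40 lung values 17 were. That percentile was 4.98 to 5.54 on the cortex arrays and 5.14 to 6.81 on the lung arrays, so these counts rest on unequal cutoffs. On lung 18, with 6.81, no gene passed it, as the highest of the 10 there was Spi1 with 6.27. RMA is known to compress differences near this low end, and the size of that effect was not measured here.

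The 10 genes were named by 17 probe sets in all, and the 7 others gave a less even picture. Tested over all 45037 probe sets, 7 of the 17 were called higher in cortex, where 7.28% of all were, and 0 were called higher in lung. C1qb kept its direction in each of its 3 probe sets: the probe set used (1437726_x_at) differed by 4.48, 1434366_x_at by 3.69 (adjusted p = 0.0411) and 1417063_at by 2.59 (adjusted p = 0.0584). Probe sets with this _x_ ending hold some probes that can match other transcripts, and 1417063_at does not have it. Csf1r differed by 2.50 in 1419873_s_at (adjusted p = 0.105) and by 1.44 in 1423593_a_at (adjusted p = 0.0826), both less than in the probe set used.

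For 3 genes the other probe set lay within 0.2 log2 units of no difference. The second probe set of Cx3cr1 differed by 0.11 (adjusted p = 0.710) and read 3.94 to 4.53 over the 8 arrays, at the low end. That of Trem2 differed by -0.09 (adjusted p = 0.676) and read 4.38 to 4.68, also at the low end. That of Ptprc differed by -0.012 (adjusted p = 0.984), and its highest array was cortex 18 with 5.92, opposite to the probe set used. Results for Ptprc, Trem2 and Cx3cr1 therefore rest on 1 probe set each. The same holds for Spi1, C1qa, C1qc, Aif1 and Mpeg1, which had no other.

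**Figure D3:**
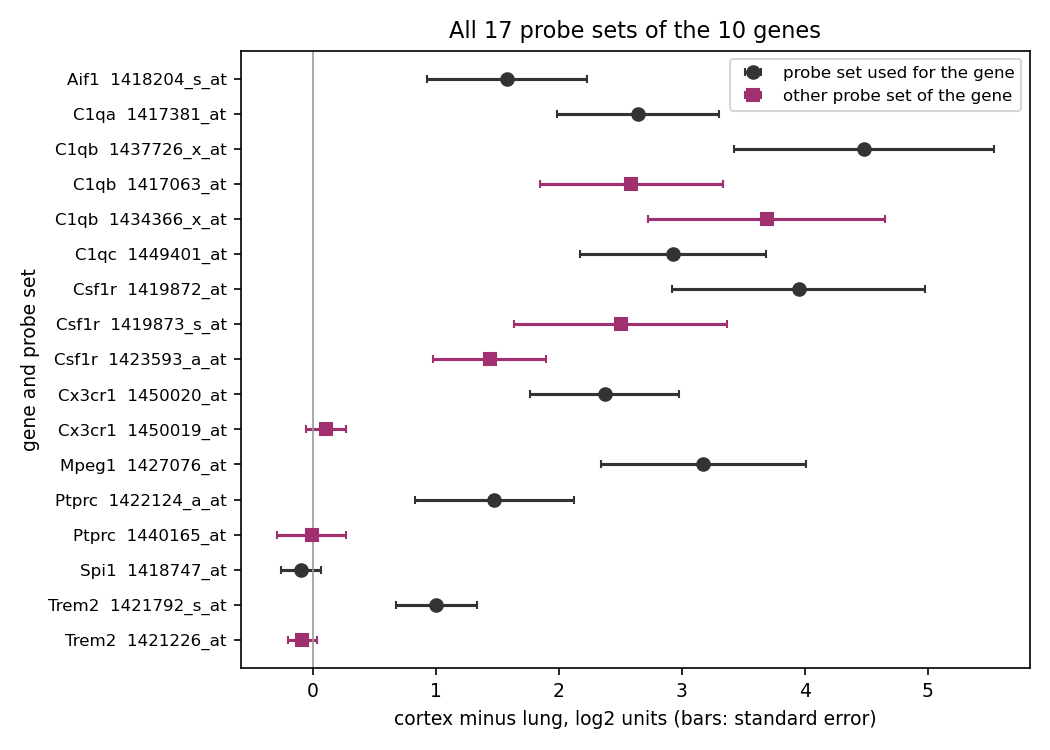
Difference between cortex and lung (x axis, cortex minus lung in log2 units, bars are standard errors of the fit over all probe sets) for all 17 probe sets of the 10 genes (y axis), with the probe set used for the gene in black and others in purple. The other probe sets of Cx3cr1, Ptprc and Trem2 lie near 0, and those of C1qb and Csf1r lie on the cortex side.

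Genes of the same pathways and cells were taken from 6 lists of companion genes, with 130 of 142 genes measured and the other 12 not analysed here. Of the 130, the test called 12 towards cortex and 15 towards lung and left 103 uncalled, with a median difference of -0.02. Of all genes, 10.4% were called towards cortex and 7.71% towards lung. These shares are the background for the counts of each list below with all 8 arrays. The drop on cortex 18 was seen in many of them: cortex 18 was the lowest cortex array for 84 of the 130 (26.5% of all genes) and at least 1 log2 unit below each other cortex array for 46 (1.62% of all genes). The mean of the 130 was 6.30 on cortex 18 and 7.25 or more on the other cortex arrays. Without cortex 18 the counts were 24 higher in cortex and 11 in lung, where 8.09% and 5.44% of all genes were. The other single arrays left out gave 2 to 9 higher in cortex, with 2 without cortex 72 and 2 without cortex 22. Of the 27 calls, 12 held without each single array in turn, 2 towards cortex (Ccl3 and Coro1a) and 10 towards lung. When arrays were scaled to their endothelial genes, 52 were higher in cortex and 3 higher in lung. Of all 18193 genes, 5480 and 157 were, as this scaling moves the median of all genes from -0.09 to 1.10. Counts of any list under endothelial scaling carry that shift, and they rest on an SE shared across genes. With the lowest probe set of each gene, 7 were higher in cortex and 9 in lung. Calls ended for Coro1a, Fcrls, Cfp, Tgfbr1, Myb, Ptpn18, Cd55, C1qbp, Itgax, Mertk and Msr1 (adjusted p from 0.0502 to 0.918). For Fcrls, Itgax and Mertk the difference itself did not change, and the adjusted p alone moved (to 0.0532, 0.0615 and 0.0502).

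Of 20 genes for ligands and signalling partners of the receptors, 1 was called towards cortex and 2 towards lung, and 17 were uncalled, with a median difference of -0.33, where 18.1% of all genes were called in either direction. Under endothelial scaling there were 4 higher in cortex and 0 in lung, and the median was 0.86, against 1.10 for all genes. Neither ligand of Csf1r passed the test. Csf1 had means of 8.02 ± 0.95 (SD, n = 4) in cortex and 8.20 ± 0.16 (SD, n = 4) in lung, a difference of -0.18 (SE 0.42, adjusted p = 0.790) that became 0.29 without cortex 18 and 1.01 under endothelial scaling. Il34 had means of 4.65 ± 0.15 (SD, n = 4) and 4.60 ± 0.12 (SD, n = 4), at the low end, and a difference of 0.05 (SE 0.13, adjusted p = 0.813) that became -0.024 with array medians centred. Cx3cl1, the fractalkine that binds Cx3cr1, had means of 6.78 ± 0.49 (SD, n = 4) and 6.82 ± 0.53 (SD, n = 4), with a difference of -0.05 (SE 0.32, adjusted p = 0.932) that became 1.14 under endothelial scaling. These p-values do not show that the levels were equal.

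Tyrobp, the adaptor through which Trem2 signals, shared the drop on cortex 18 with the probe set used for Trem2. On lung their arrays ranked differently, with Tyrobp lowest on lung 18 and Trem2 lowest on lung 19. Tyrobp read 10.10, 9.81, 10.28 and 5.77 on cortex 72, 22, 19 and 18, and 7.14, 6.20, 5.86 and 5.14 on lung 72, 22, 19 and 18. Cortex 18 was again inside the lung range. The difference of 2.91 (SE 0.97) did not pass (adjusted p = 0.0742) and passed without cortex 18 at 3.98 (adjusted p = 0.000881). Tgfb1, a growth factor that microglia need, was higher in lung by 5.23-fold (adjusted p = 0.00876). Plcg2, a phospholipase downstream of Trem2, was higher in lung by 4.38-fold (adjusted p = 0.00721). Neither passed under endothelial scaling (adjusted p = 0.0813 and 0.141). The receptor gene Tgfbr1 was 1.72-fold higher in cortex (adjusted p = 0.0439), a call that held only without lung 19 among the single arrays left out and was lost without each of the other 7 (adjusted p from 0.0522 to 0.105).

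Of 18 other complement genes measured, 1 was called towards cortex and 4 towards lung, and 13 were uncalled, with a median difference of -0.41. Under endothelial scaling there were 4 higher in cortex and 0 in lung, with a median of 0.78 against 1.10 for all genes. Without cortex 18 the counts were 0 and 2, where 8.09% and 5.44% of all genes were called. The regulators Cd59a and Cd55, which protect cells from complement, were 5.67-fold (adjusted p = 4.13e-05) and 3.04-fold (adjusted p = 0.00708) higher in lung, and neither was called under endothelial scaling (adjusted p = 0.0594 and 0.501). Itgax, an integrin chain that binds complement fragments, was 1.55-fold higher in lung (adjusted p = 0.0469), with the opposite sign, 0.56, under endothelial scaling. Its call held without lung 22 and ended without any other single array (adjusted p up to 0.117). C1qbp, a mostly mitochondrial protein that can bind C1q, was higher in lung by 1.41-fold (adjusted p = 0.0247), again with the opposite sign, 0.69, under endothelial scaling, and its call ended without any 1 of cortex 72, cortex 19, cortex 18, lung 72 and lung 19 (adjusted p up to 0.0683). Cfp, properdin of the alternative pathway, was 1.71-fold higher in cortex (adjusted p = 0.0394), a call that ended without any 1 of cortex 72, cortex 22, cortex 18, lung 22 and lung 18 (adjusted p up to 0.106). The 4 cortex arrays of Cfp read 9.62, 9.17, 9.04 and 9.62, so cortex 18 was not low for it.

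Of 17 measured transcription factors of myeloid cells, 1 was called towards cortex and 3 towards lung, and 13 were uncalled, with a median difference of -0.09. Under endothelial scaling the counts were 7 higher in cortex and 1 in lung, and the median was 1.10, as it was for all genes. Irf8, which acts with PU.1 in macrophages, had means of 6.23 ± 0.81 (SD, n = 4) in cortex and 6.44 ± 0.72 (SD, n = 4) in lung, a difference of -0.22 (SE 0.47, adjusted p = 0.776) that became 0.18 without cortex 18 and 0.97 under endothelial scaling. Its cortex values were 6.56, 6.49, 6.82 and 5.03, with cortex 18 lowest. Lyl1 and Gata2, factors of blood progenitors that endothelial cells use too, were 6.62-fold (adjusted p = 0.00293) and 3.59-fold (adjusted p = 0.0418) higher in lung. The call for Gata2 ended without any 1 of cortex 72, cortex 18, lung 72, lung 22 and lung 19 (adjusted p up to 0.105) and under endothelial scaling (0.288). Batf3, a factor of dendritic cells, was higher in lung by 2.28-fold (adjusted p = 0.0019), a call that ended under endothelial scaling (adjusted p = 0.998). Myb, a progenitor factor that yolk sac macrophages do not need, was 1.81-fold higher in cortex (adjusted p = 0.0473), but its call ended without any 1 of the 8 arrays (adjusted p from 0.0562 to 0.115).

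The microglia-enriched genes came closest to the 10. Of 14 measured, 5 were called towards cortex and 1 towards lung, and 8 were uncalled, with a median difference of 0.64. Without cortex 18 there were 7 higher in cortex and 1 in lung, where 8.09% and 5.44% of all genes were. P2ry12, the nucleotide receptor used to tell microglia from other macrophages, read 7.16, 7.29, 7.72 and 5.05 on the cortex arrays and 3.80, 4.98, 4.48 and 4.77 on the lung arrays. No lung array reached any cortex array. The difference was 4.91-fold (adjusted p = 0.0218), and that of its relative P2ry13 was 5.13-fold (adjusted p = 0.0241), both towards cortex. Ctss, cathepsin S, was 6.70-fold higher (adjusted p = 0.0267) and Fcrls, an Fc receptor-like scavenger receptor, 4.73-fold higher (adjusted p = 0.0374). The fifth was Gpr34, a lipid receptor, 4.20-fold higher (adjusted p = 0.0336).

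Each of these 5 calls ended without some single arrays and held without cortex 18. P2ry12 lost it without any 1 of cortex 72, cortex 22, cortex 19, lung 72 and lung 19 (adjusted p up to 0.0642). P2ry13 lost it without any array but cortex 18 (up to 0.0698), as did Fcrls (up to 0.1) and Gpr34 (up to 0.0861). Ctss lost it without any array but cortex 18 and lung 72 (up to 0.0766). The gene higher in lung was Tmem119, named here because its values went against its list. Tmem119 marks adult microglia in brain and is also made by mesenchymal cells. It was 4.59-fold higher in lung (adjusted p = 0.00651), a call that held without each array in turn and not under endothelial scaling (adjusted p = 0.120).

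Of 30 tissue macrophage genes, 2 were called towards cortex and 4 towards lung, and 24 were uncalled, with a median difference of -0.02. Without cortex 18 there were 5 towards cortex and 2 towards lung, where 8.09% and 5.44% of all genes were. Under endothelial scaling there were 10 and 1, where 5480 and 157 of all 18193 genes were called. The chemokines Ccl3 and Ccl4, which draw other leukocytes, were the ones higher in cortex with all 8 arrays. Ccl3 read 9.59, 9.66, 10.01 and 5.42 on the cortex arrays and 4.84, 4.37, 4.12 and 4.59 on the lung arrays. All cortex arrays were above all lung arrays, with cortex 18 far below the other cortex arrays. The difference of 4.19 (SE 0.92), or 18.3-fold, had an adjusted p of 0.0148, and the call held without each array in turn. Ccl4 was 6.50-fold higher (adjusted p = 0.0222), a call lost without any 1 of cortex 72, cortex 22, cortex 19, lung 19 and lung 18 (adjusted p up to 0.0661).

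Lyve1, a hyaluronan receptor of lymphatic vessels and of some macrophages, went the other way. It read 5.11, 5.28, 6.34 and 6.32 on the cortex arrays and 10.52, 10.78, 10.87 and 10.83 on the lung arrays, a 31.7-fold difference towards lung (adjusted p = 1.8e-05) that was called under every setting tried. Cbr2, a carbonyl reductase abundant in lung, was 3.33-fold higher there (adjusted p = 0.00327), and it was not called under endothelial scaling (adjusted p = 0.373). Mertk, a receptor for dying cells, and Msr1, a scavenger receptor, were higher in lung by 0.98 (adjusted p = 0.0366) and 0.61 (adjusted p = 0.0412) log2 units, with the opposite sign under endothelial scaling (0.21 and 0.58). The call for Mertk held without cortex 22 and without lung 72, and that for Msr1 held without lung 72, and both ended without any other array (adjusted p up to 0.102).

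Adgre1, an adhesion receptor used as a general marker of macrophages, had means of 7.03 ± 1.41 (SD, n = 4) in cortex and 5.31 ± 0.37 (SD, n = 4) in lung, and the difference of 1.72 (SE 0.62) did not pass (adjusted p = 0.0935). It passed without cortex 18 (adjusted p = 0.00521), with array quality weights (0.0377) and under endothelial scaling (4.61e-06). The last value rests on an SE shared across genes and not on the spread of Adgre1 itself. Mrc1, the mannose receptor of macrophages at the borders of the brain and of some vessels, read 7.78, 7.99, 9.49 and 4.29 on the cortex arrays and 8.29, 6.63, 8.28 and 6.10 on the lung arrays. The tissues overlapped throughout, with cortex 18 the lowest array. The difference was 0.06 (SE 1.04, adjusted p = 0.975), with a sign that turned under array median centring (-0.016), quantile normalization done again (-0.0042) and with array quality weights (-0.42), and it was 1.09 without cortex 18.

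Of 31 genes for leukocyte cytoskeleton, signalling and phagocytosis, 2 were called towards cortex and 1 towards lung, and 28 were uncalled, with a median difference of 0.38. Without cortex 18 there were 10 higher in cortex and 2 in lung, where 8.09% and 5.44% of all genes were. Under endothelial scaling there were 18 and 1, where 5480 and 157 of all 18193 genes were called. Coro1a, a coronin that binds actin in leukocytes and is found in neurons too, was 8.68-fold higher in cortex (adjusted p = 0.00255), but with its lowest probe set the difference was 0.46 log2 units and was not called (adjusted p = 0.410). Its cortex values were 11.16, 10.52, 10.87 and 10.67, so cortex 18 was as high as the others, unlike the 10 genes. Pld4, a phagocyte enzyme of the phospholipase D family, was 4.36-fold higher in cortex (adjusted p = 0.0223), a call that held without cortex 18 and without lung 72 and ended without any other array (adjusted p up to 0.0616). Ptpn18, a tyrosine phosphatase, was 6.23-fold higher in lung (adjusted p = 0.00556). Its lowest probe set differed by -0.69 log2 units and was not called (adjusted p = 0.144).

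**Figure D4:**
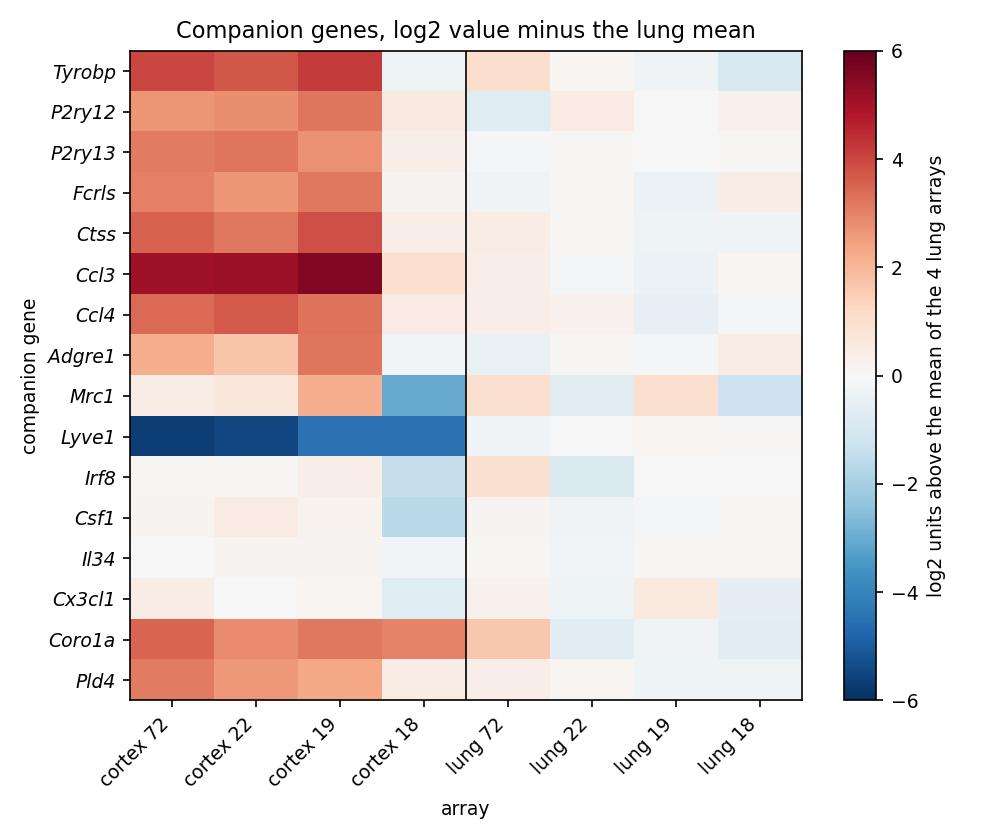
Log2 value of 16 companion genes (y axis) on the 8 arrays (x axis), each minus the mean of the 4 lung arrays, with red above and blue below that mean and the colour bar in log2 units. The genes were selected for display after their values were seen. Tyrobp, the P2ry genes, Fcrls, Ctss, Ccl3, Ccl4 and Adgre1 are red on cortex 72, 22 and 19 and pale on cortex 18, Coro1a is red on all 4, and Lyve1 is blue on all 4.

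Lists of markers of other cells gave the setting in which the 10 genes varied. The mean of the 10 genes was 8.55, 8.17, 8.68 and 5.72 on cortex 72, 22, 19 and 18, and 5.90, 5.31, 5.59 and 4.91 on lung 72, 22, 19 and 18. The microglia-enriched mean was 8.28 to 8.52 on cortex 72, 22 and 19, 6.61 on cortex 18 and 7.09 to 7.41 on lung. The tissue macrophage mean was 5.38 on cortex 18 against 6.29 to 6.66 on the other cortex arrays. The leukocyte mean was 5.95 on cortex 18 against 7.09 to 7.40. The endothelial mean was also lowest on cortex 18 (9.70). Cortex 18 was the lowest cortex array for 13 of the 16 endothelial genes, and at least 1 log2 unit below each other cortex array for 1. Cortex 72 had the next endothelial mean, 10.09, and a mean of the 10 genes of 8.55. The part of the lower endothelial level in the pattern of cortex 18 was not tested.

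Among markers of other blood cells, cortex 18 was at least 1 log2 unit below each other cortex array for 0 of the neutrophil, mast cell and progenitor genes, for 1 of the T, B and NK cell genes and for 1 of the megakaryocyte genes. Cd79b, a chain of the B cell receptor, read 6.40, 6.40, 6.97 and 5.12 on cortex 72, 22, 19 and 18 and 7.08 to 7.97 on lung. Pf4, a platelet chemokine, read 9.20, 6.91, 8.43 and 4.84 on the cortex arrays and 7.43 to 8.38 on lung. It is also in the list of tissue macrophage genes, so it does not stand for another cell type alone. Of 9 neutrophil genes 1 was higher in cortex and 0 in lung, with means of 4.60 to 4.77 on cortex and 4.61 to 5.05 on lung. Of 9 genes of T, B and NK cells 0 were higher in cortex and 1 in lung, with means of 4.53 to 4.97 and 4.93 to 5.79. Of 7 mast cell genes 0 were higher in cortex and 1 in lung (5.08 to 5.18 and 5.56 to 5.82). Against the 95th percentile of olfactory receptor genes, the neutrophil mean was lower on 8 arrays, the T, B and NK cell mean on 7 and the mast cell mean on 4. Of 8 progenitor genes 1 was higher in each tissue (7.95 to 8.61 on cortex and 8.60 to 9.16 on lung). Of 6 megakaryocyte genes 1 was higher in cortex and 0 in lung, with means of 5.35 to 7.02, lowest on cortex 18, and 5.64 to 6.27.

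Erythroid and mesenchymal genes set the tissues apart. Of 7 erythroid genes 2 were higher in cortex and 0 in lung (6.77 to 7.67 on cortex, highest on cortex 18, and 6.09 to 6.51 on lung). Of 10 genes of mesenchyme and mural cells 1 was higher in cortex and 6 in lung (6.66 to 7.23 and 7.47 to 9.57). Of the 16 endothelial genes 0 were higher in cortex and 4 in lung, and of the 10 neural genes 10 were higher in cortex. The part of these cells in the differences of the 10 genes was not tested.

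**Figure D5:**
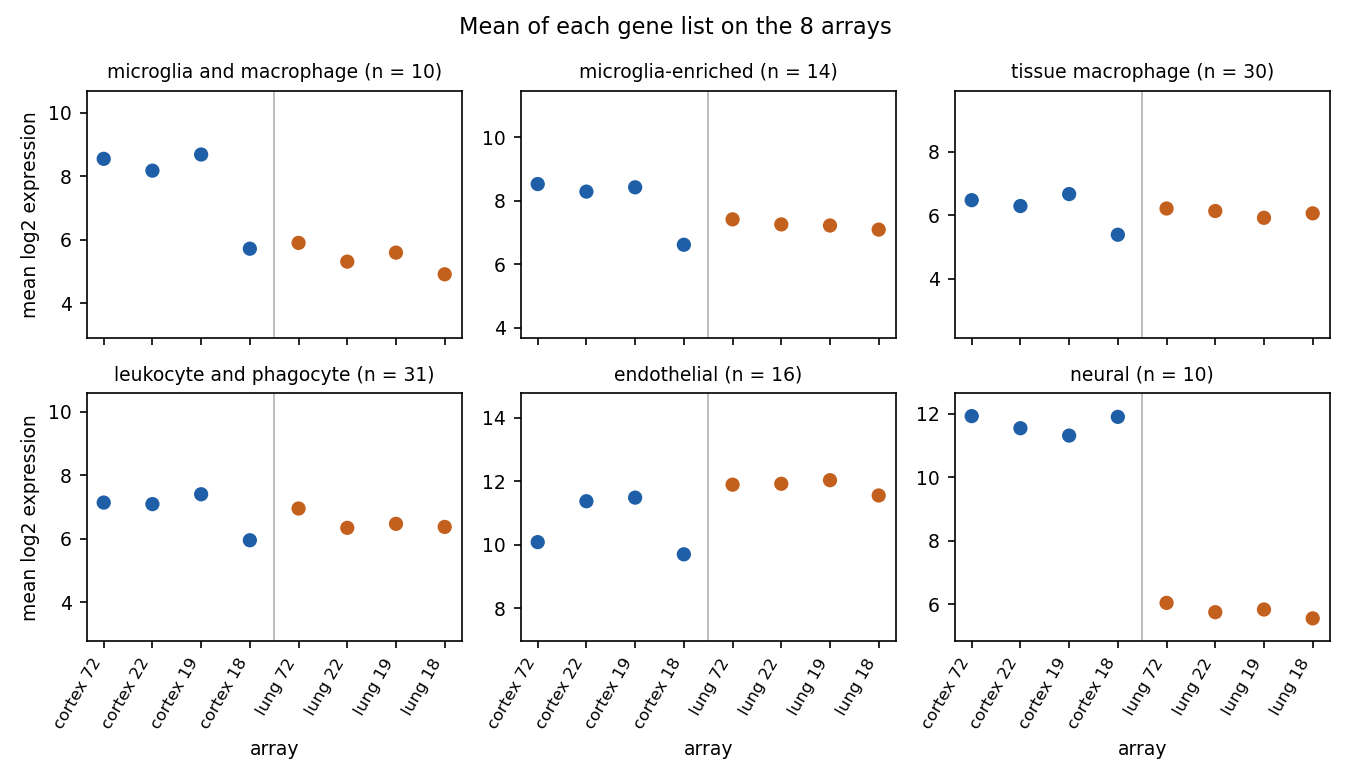
Mean log2 expression (y axis) of 6 gene lists, named above each panel with the number of genes measured, on the 4 cortex arrays (blue) and 4 lung arrays (orange); all panels span the same height in log2 units. The 10 genes fall from 8.17 or more on cortex 72, 22 and 19 to 5.72 on cortex 18, while the neural mean on cortex 18 is 11.90.

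Within the tissues the genes varied together. Over the 36 pairs of the 9 genes other than Spi1, the deviations from the tissue means correlated with r from 0.49 to 0.98 (median 0.83, 8 arrays), and the 3 pairs of C1q genes with r from 0.83 to 0.94. Without cortex 18 the 36 pairs had r from -0.68 to 0.93, with a median of 0.37 over 7 arrays. The arrays share their hybridisation and normalization, and the high values over 8 arrays rest on cortex 18.

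The genes most like the mean of the 10 were sought among 4211 genes whose deviations varied enough. They were Fcer1g (r = 0.99), Dock8 (0.99), Arhgdib (0.99), Rnase4 (0.98), Tyrobp (0.98), Tmem159 (0.98), Il3ra (0.98) and Hacd4 (0.98), over 8 arrays. Without cortex 18 the same genes had r from 0.79 (Il3ra) to 0.95 (Rnase4) over 7 arrays. They were picked for the highest r over arrays that include these 7, so high values here are partly set by that choice. Fcer1g, the signalling chain of Fc receptors, read 8.90 to 9.45 on cortex 72, 22 and 19, 6.56 on cortex 18 and 6.38 to 7.53 on lung. Dock8, an exchange factor of leukocytes, followed the same ups and downs within tissues and was yet 2.78-fold higher in lung (adjusted p = 0.0230), as was Tmem159 by 2.62-fold (adjusted p = 0.0412). The call for Dock8 ended without lung 72 (adjusted p = 0.0542) and without lung 19 (0.0554), and that for Tmem159 held only without cortex 19 and without cortex 18 (up to 0.0988 without another). Both calls ended under endothelial scaling (0.642 and 0.748) and with the lowest probe set (0.201 and 0.708). A gene could thus follow the 10 genes from array to array and differ from them between the tissues.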

How the data were processed

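RNA of 8 pooled samples (4 cortex, 4 lung) was measured on Affymetrix Mouse Genome arrays after linear amplification of 15 to 30 ng. The authors deposited log2 values for 45101 probe sets, and the submitters' processing notes name RMA and the affy package, with versions not given in the sources used here. RMA corrects background, makes the arrays' distributions equal and summarises probes, so each difference is relative to the rest of the array. Each of the 8 value columns belonged to a sample, and 0 columns were left over. The deposited log2 values ran from 2.82 to 15.02 and were used as they stood.

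After 64 control probe sets were left out, 34945 probe sets named 1 gene in the platform annotation, 932 named several and 9160 were unnamed here. Gene numbers tied 34741 of the first to RefSeq, which changed 0 symbols. With the probe set of highest mean per gene, 18193 genes were tested in R 4.3.3 with limma 3.58.1 (tissue as factor in lmFit, then eBayes, no block), with Benjamini-Hochberg adjustment over all genes and calls at an adjusted p under 0.05. P-values are two-sided and, except under endothelial scaling, measure the spread between these pools. Under that scaling Spi1, Itgax, Csf1, Cx3cl1 and Irf8 all had an SE of 0.565, against 0.16 for Spi1 in the main fit. Calls gained or lost under it therefore do not reflect each gene's own spread. The fit was tested on simulated data.

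Named companion genes are the 4 called genes with the largest difference in each list (fewer where fewer were called), Tyrobp, Csf1, Il34, Cx3cl1, Irf8, P2ry12, Mrc1, Lyve1 and Adgre1, the highest and lowest difference of each marker list (not all printed), and the 8 genes whose deviations from the tissue means correlated best with those of the mean of the 10 genes. Gpr34, Tmem119, C1qbp, Mertk and Msr1 were added after their values were seen, to account for every call. The 10 genes and the lists were chosen with earlier results of these data known.

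Alternatives covered other scalings (array medians, endothelial genes, quantiles), probe set choices, a filter on dim probe sets, array weights, a variance trend, unmoderated variances, the sample number as a block, and leaving out arrays. The check used did not settle whether numbers pair the samples. Deviations from the tissue means of same-numbered arrays correlated at 0.335 for 72, -0.162 for 22, 0.009 for 19 and 0.3071 for 18. For arrays of different numbers they correlated at -0.348 to 0.3069, so 72 and 18 were above that range and 22 and 19 inside it. With the number as a random block, the correlation of same numbers was 0.20. The labels do not say that a number marks a litter.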

Additional observations from a re-analysis of the deposited data

Results flagged for a closer look

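For 168 sets of 4 arrays, the gap of the highest or lowest array to its neighbour was divided by the whole range. The sets were the arrays of each tissue for 67 genes (the 10 genes, the companion genes called, the genes taken from each list by the naming rule and the 8 genes most like the mean of the 10) and for the means of 17 lists. A share above Dixon's critical value for 4 values marked an array that stood apart, which chance gives in about 1 of 20 sets. There were 18 such sets, and in 12 of the single genes cortex 18 was the low array. Among the 10 genes it stood apart for Csf1r (0.846), C1qb (0.858) and C1qc (0.9). Among companion genes it stood apart for P2ry13 (0.838), Fcrls (0.838), Ccl3 (0.907), Ccl4 (0.865), Tyrobp (0.897) and Csf1 (0.839), and for the mean of the microglia-enriched genes (0.875). Among the genes most like the mean of the 10, where a low cortex 18 is part of the likeness, it stood apart for Dock8 (0.875), Tmem159 (0.898) and Il3ra (0.869). The genes share the array, so these sets are not independent of each other.

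Other arrays stood apart in 5 sets. Cd59a was high on cortex 19 (0.863), Myb was low on lung 19 (0.904) and Il34 was low on lung 22 (0.902). Mpo, an enzyme of neutrophil precursors, was high on cortex 22 (0.91) and on lung 72 (0.923).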

How the results depend on the processing

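With 4 arrays per tissue and calls close to the threshold, the counts moved with most choices. Of the 10 genes, 6 were called higher in cortex, against 3 with the lowest probe set per gene, all 3 with no other probe set. The count was 2 of the 3 genes left by the filter on dim probe sets and 0 with unmoderated variances. It was 0 to 8 over the arrays left out singly or as pairs of the same number. The count of 0 called higher in lung held in every setting. Of all genes, 1888 were higher in cortex and 1403 in lung. Scaling to endothelial genes gave 5480 and 157, the lowest probe set 1093 in cortex, array weights 2204 and 2233, median centring 1660 and 1732, renewed quantile normalization 2006 and 2071, and arrays left out 1248 to 1966 and 675 to 1274. Of companion genes, 12 were higher in cortex and 15 in lung. Endothelial scaling gave 52 and 3, the lowest probe set 7 and 9, unmoderated variances 1 in cortex, and arrays left out 1 to 24 and 9 to 15.

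The sign turned for Ptprc (-0.012) and Trem2 (-0.087) with the lowest probe set, and under endothelial scaling for Spi1 (1.09), Itgax (0.56), Csf1 (1.01), Cx3cl1 (1.14) and Irf8 (0.97). It turned for Il34 (-0.024) and Mrc1 (-0.016) with medians centred, and for Mrc1 with renewed quantile normalization (-0.0042) and array weights (-0.42). Over arrays left out, differences ran from -0.20 to 0.083 for Spi1, -0.47 to 0.31 for Csf1, -0.046 to 0.14 for Il34, -0.25 to 0.18 for Cx3cl1, -0.60 to 0.18 for Irf8 and -0.64 to 1.09 for Mrc1. The cause was not tested.

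With the sample number as a replicate block, 7 of the 10 genes were called. Ptprc (adjusted p = 0.0416) and Aif1 (0.0390) passed, and Cx3cr1 (0.0606) no longer did. As a random replicate block it also gave 7, with Trem2 (0.0467) added. The numbers are not shown to pair the samples, so this is not read as a weaker or stronger effect.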

Other observations

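The pattern of the 10 genes, with cortex 72, 22 and 19 above every lung array and cortex 18 at least 1 log2 unit below them, was met by 64 of 18193 genes (0.352%). These were 8 of the 10 genes, 22 companion genes and 34 others. The pattern was described from the 10 genes themselves, so their own count is no test of it. Among the others were leukocyte genes, given here after their values were seen. Ly86, which forms a complex with a Toll-like receptor relative on immune cells, read 9.26, 8.69, 9.73 and 5.82 on cortex 72, 22, 19 and 18 and 5.90 to 7.92 on lung. Cxcl2, a neutrophil chemokine, read 9.53, 9.05, 9.41 and 5.34 on the cortex arrays and 5.01 to 7.85 on lung. Plek, a protein kinase C substrate of platelets and leukocytes, read 8.81, 8.50, 9.18 and 6.05 on cortex and 5.70 to 6.98 on lung. Cd83, a surface protein of activated immune cells, read 11.52, 11.56, 11.79 and 9.28 on cortex and 6.58 to 9.06 on lung, so that cortex 18 was still above lung.

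Not all of the 34 were genes of leukocytes. Ttr, the thyroid hormone carrier made by the choroid plexus, read 13.06, 10.67, 13.05 and 7.30 on the cortex arrays and 5.12 to 6.73 on lung, although the choroid plexus was removed in dissection. Clic6, also made by the choroid plexus, read 7.05, 6.49, 7.80 and 5.05 on cortex and 4.71 to 6.46 on lung. Slc38a3 and Slco2b1, transporters of brain vessels among other cells, fell on cortex 18 to 8.43 and 8.93, from 9.46 or more and 9.93 or more on the other cortex arrays. The part of these cells in the pattern of cortex 18 was not tested.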
